A study of Mus musculus with 90 samples.

Results

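The cytosolic ribosomal protein genes were followed in mouse liver RNA across 5 experiments on feeding, glucocorticoid and insulin signalling, and obesity. The members were the 89 of 24312 gene symbols in the expression table that begin with Rpl or Rps and a digit, or are Rplp0, Rplp1, Rplp2 or Rpsa, and that carry a RefSeq mRNA identifier, with the Rps6k kinases and named pseudogenes left out. Each symbol was represented by its most abundant RefSeq mRNA, which mattered for 15 members with more than 1 such identifier. Proteins named Rpl belong to the large (60S) ribosomal subunit and proteins named Rps to the small (40S) subunit, and they assemble with ribosomal RNA in the nucleolus before the subunits are exported to the cytosol. Their messenger RNAs are short, abundant in every tissue, and mostly begin with a run of pyrimidines (the 5′ terminal oligopyrimidine or TOP motif) through which translation is coupled to nutrients and insulin by the kinase complex mTORC1. The mouse genome also holds many processed pseudogenes of these genes, which are intronless copies of the spliced messenger RNA.

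The name of a gene did not always fit the group. Rps19bp1 encodes a protein that binds Rps19 and is not a part of the ribosome. Rpl3l is a muscle paralog, and Rpl10l and Rpl39l are paralogs known from testis. In these livers Rpl10l was at 0 in 53 of 54 libraries, Rpl39l at 0 in 51 and Rpl3l at 0 in 21, and these 3 members did not reach a mean of 0.5 RPKM (reads per kilobase of transcript, scaled to the mapped reads of a library) in any experiment. The other members among the 5 lowest were Rps23rg1 and Rpl32l, both named after the gene they resemble.

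Each of the 54 libraries came from the liver of 1 C57BL/6 mouse, with wild-type mice and Nr3c1 fl/fl mice given as C57BL/6N in the study's methods and the L-IRSdKO mice as C57BL/6J. All were kept on night-restricted feeding (NRF) for 4 days, with food given at zeitgeber time (ZT) 12, when the lights went off. The NRF experiment held 2 wild-type males each at ZT10, at ZT14 without food (ZT14-unfed) and at ZT14 after 2 h of food (ZT14-fed), all 10 weeks old. The injected mice, wild type and 10 weeks old, held 4 mice each at ZT14 in unfed vehicle, fed vehicle, fed dexamethasone (dex, a glucocorticoid, 1 mg/kg), fed S961 (an insulin receptor antagonist, labelled 44 nM/mouse, though dosed per body weight in the study's methods) and fed dex + S961. Titles and descriptions name S961 for both of these groups, whereas one label field gives other numbers after the S in most of their mice. The L-GRKO experiment compared 4 unfed Nr3c1 fl/fl mice given AAV8-TBG-Cre 2 weeks before NRF with 4 given AAV8-TBG-eGFP. The TBG promoter restricts Cre to hepatocytes, so the glucocorticoid receptor is kept in the other liver cells. The L-IRSdKO experiment compared 4 mice with floxed Irs1 and Irs2 and Alb-Cre, active in cells of the hepatocyte lineage throughout life, with 4 floxed mice without Cre, all 10 weeks old, fed, and injected with 1 mg/kg dex. The obesity experiment held 3 males each of lean unfed, lean fed, obese unfed and obese fed at ZT14, with obesity from 10 weeks of high-fat diet begun at 5 weeks of age and chow for the lean mice. RNA was depleted of ribosomal RNA in the NRF experiment and enriched for poly(A) in the other 4. Of the targeted genes, Nr3c1 was lower, at 12.8, 14.5, 13.2, and 16.2 RPKM in controls and 3.93, 4.23, 4.14, and 5.35 RPKM in L-GRKO mice (limma, adjusted p = 6.8e-05), and Irs1 was lower in L-IRSdKO mice (a log2 change of -2.66, adjusted p = 9.2e-04). Irs2 was not called there (-0.79, adjusted p = 0.31). Hepatocyte markers summed to 2361 to 2960 RPKM in the L-IRSdKO experiment, both groups included, and to 30171 to 76841 RPKM in all other libraries. The ratio of the deepest to the shallowest library, read from the smallest steps in the values, was between 1.23 in L-IRSdKO and 3.69 in the obesity experiment.

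The level of these genes differed most between experiments. The median member had a mean of 186 RPKM in the L-GRKO experiment, against 8.62 RPKM in NRF, 7.57 RPKM in the injected mice, 10.8 RPKM in L-IRSdKO and 13.9 RPKM in the obesity experiment. The members together took 3.33% to 3.98% of all summed RPKM in the 8 L-GRKO libraries, controls included, and 0.559% to 0.940% in the libraries of the other experiments. Of the 89 members, 79 were highest in L-GRKO, and 71 exceeded 100 RPKM there, whereas 5, 6, 5, and 12 did so in NRF, injected, L-IRSdKO, and obesity. No test was made between experiments, since their mice (substrain included), RNA selection, sequencing and processing cannot be told apart.

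**Figure D1:**
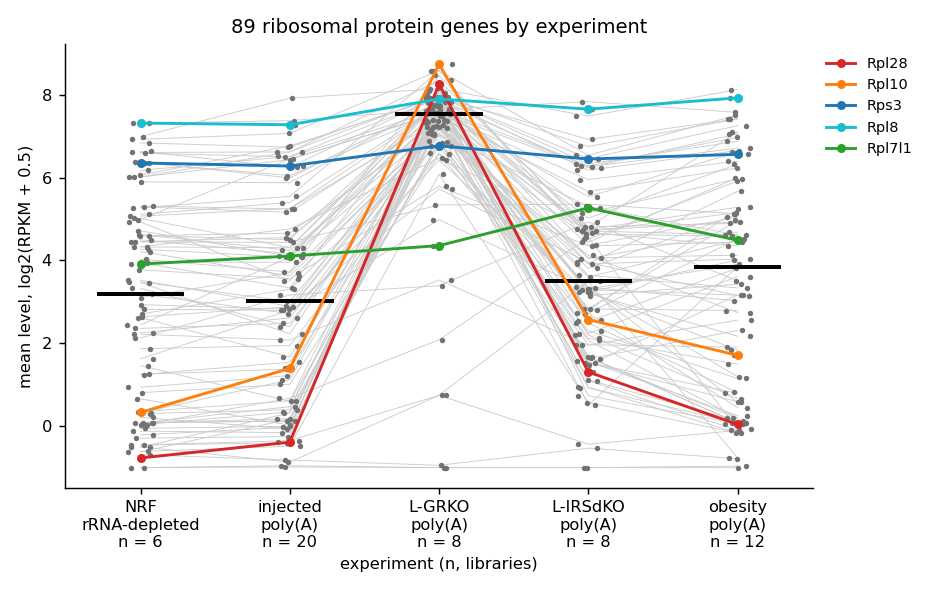
Mean level on the log2(RPKM + 0.5) scale (y axis) of each of the 89 cytosolic ribosomal protein genes in the 5 experiments (x axis), with 1 point and a grey line per gene, a black bar at the median and 5 genes in colour. The L-GRKO experiment stands apart, with a median of 186 RPKM against 7.57 to 13.9 RPKM in the other 4.

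The gap between experiments was not shared by all members. Rps3, a 40S protein at the entry of the messenger RNA channel, had means of 81.3, 77.2, 108, 86.8, and 93.9 RPKM in NRF, injected, L-GRKO, L-IRSdKO, and obesity, and Rpl8 had 159, 154, 238, 200, and 242 RPKM in the same order. Rpl4, which with Rpl8 was among the most abundant members over all libraries, had 126, 241, 282, 178, and 278 RPKM. None of these 3 was under 77.2 RPKM in any experiment. By contrast, Rpl28 had means of 0.0877, 0.265, 304, 1.97, and 0.530 RPKM, and Rpl10, a 60S protein that joins late in assembly, had 0.759, 2.13, 426, 5.45, and 2.77 RPKM. Rps6, the 40S protein phosphorylated by S6 kinase, had 1.88, 2.10, 129, 3.85, and 2.32 RPKM. In all, 17 members were under 5 RPKM in each of 4 experiments and over 100 RPKM in L-GRKO. Within L-GRKO these values were steady from mouse to mouse, with Rpl28 at 259, 262, 336, and 273 RPKM in controls and 324, 342, 362, and 279 RPKM in the mice with Cre.

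The order of the members by level was shared by the other experiments and not by L-GRKO. Spearman's rho over the 89 members was 0.974 between NRF and the injected mice, 0.979 between NRF and obesity, 0.989 between injected and obesity, and 0.869 to 0.897 between L-IRSdKO and these 3. Against L-GRKO it was 0.267 to 0.390. All members share the libraries, and the values are a description.

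The members also differed in how much of their sequence the genome holds elsewhere. The first 50 coding bases are printed for a pair of genes whose level differed little between experiments (Rps3 and Rpl8) and a pair that differed most (Rpl28 and Rpl10), from the GENCODE transcripts and the mm9 genome, 5′ to 3′, with the start codon in capitals. The Rpl8 bases lie at chr15:76734743-76734792 on the plus strand and the Rpl28 bases at chr7:4744931-4744980 on the plus strand, both within an exon, while the Rps3 bases cross an exon junction of the gene at chr7:106626406-106632248 (minus strand) and the Rpl10 bases one of the gene at chrX:71516151-71518474.
Rps3: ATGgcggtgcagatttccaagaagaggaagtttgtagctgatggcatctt
Rpl8: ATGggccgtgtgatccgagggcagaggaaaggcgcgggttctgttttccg
Rpl28: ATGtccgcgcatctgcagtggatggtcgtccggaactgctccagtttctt
Rpl10: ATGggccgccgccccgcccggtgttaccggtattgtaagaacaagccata
The Rpl8 bases occurred 1 time in the genome, in the gene itself, and 0 times elsewhere, and the Rps3 bases, which no single exon holds, occurred 0 times. The Rpl28 bases occurred 1 time in the gene and 4 times elsewhere, and the Rpl10 bases, which cross a junction too, occurred 4 times elsewhere. A read of exactly these bases of Rpl10 thus has unspliced matches outside the gene and none inside it.

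The share of such copied sequence was measured over every member. For the 84 members with a GENCODE transcript, each stretch of 50 bases of the spliced sequence was looked up in the whole of mm9 outside the member's own gene. The median member had 89.2% of its coding stretches elsewhere in the genome, and 41 of 84 members had 90% or more, compared with a median of 0% and a share of 1.23% of genes at 90% or more among 18111 other genes. The 6 members with under 10% included Rps3 and Rpl8. Over the 84 members the share of coding stretches found elsewhere was higher with a higher ratio of the L-GRKO to the obesity level (Spearman's rho = 0.91) and lower with a higher level in the obesity experiment (rho = -0.66), and it had little relation to the level in L-GRKO itself (rho = 0.07).

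The ratio climbed step by step with the copied share. The median ratio of the L-GRKO to the obesity level, each as mean RPKM + 0.5, was 0.979 for the 6 members with 0% to 10% of coding stretches elsewhere, 1.43 for the 10 with 10% to 50%, 2.30 for the 8 with 50% to 75%, 5.96 for the 19 with 75% to 90% and 45.9 for the 41 with 90% or more. Among other genes over 5 RPKM in either experiment the median ratios were 0.954 for 4888 genes, 1.21 for 466, 1.98 for 136, 2.87 for 79 and 6.23 for 89 in the same bins. A gene could pass this filter through its L-GRKO level alone. The 89 other genes with 90% or more had median levels of 4.12 RPKM in obesity and 22.8 RPKM in L-GRKO. The filter itself can thus raise the ratios of other genes, and no support is drawn from them. How reads with several matches were counted is not given in the sources used here, and its part in these levels was not tested. The levels of mostly copied members are therefore uncertain, and all comparisons were made within an experiment.

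**Figure D2:**
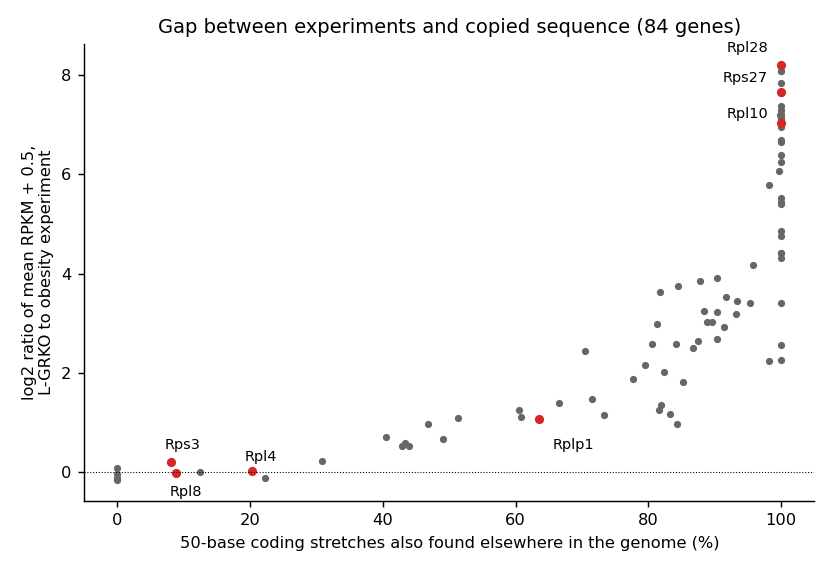
Share of a member's 50-base coding stretches that occur elsewhere in the mm9 genome (x axis, percent) against the log2 ratio of its mean RPKM + 0.5 in L-GRKO to that in the obesity experiment (y axis), with 1 point per gene for 84 members. The ratio lies near 0 for genes with few copies such as Rps3 and Rpl8 and reaches 8.21 for Rpl28 (Spearman's rho = 0.91).

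Among the paralogs and copies the pattern varied. Rpl22l1, the paralog of Rpl22, had means of 13.2, 11.3, 54.9, 19.9, and 21.3 RPKM in NRF, injected, L-GRKO, L-IRSdKO, and obesity, below Rpl22 in all but L-GRKO, at 21.3, 21.2, 40.0, 40.5, and 34.4 RPKM. Rps27l, the paralog of Rps27, had 95.7, 90.04, 199, 77.5, and 125 RPKM, whereas Rps27, with 100% of its coding stretches elsewhere, had 0.561, 0.588, 212, 2.68, and 0.555 RPKM. The retrogene Rps27rt followed Rps27 closely, at 0.563, 0.590, 215, 2.69, and 0.561 RPKM, so that the signal of these near-identical genes is uncertain. Rpl36al, the paralog of Rpl36a, had 38.7, 35.3, 178, 50.1, and 74.7 RPKM. Copies were highest in the L-IRSdKO experiment for Rpl37rt, at 23.0 RPKM against 0.46 to 3.74 RPKM in the other experiments, and for Rpl32l, at 10.8 RPKM against 0.05 to 1.18 RPKM. Both were at like levels in the L-IRSdKO groups, with Rpl32l at 11.6, 10.2, 11, and 10.1 RPKM in controls and 10.2, 10.4, 13.1, and 9.43 RPKM in knockouts. Rpl7l1, a nucleolar paralog of Rpl7 that acts in 60S assembly, had 14.6, 16.7, 20, 38.0, and 21.9 RPKM.

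The comparisons within each experiment were made on log2(RPKM + 0.5) with limma across all genes whose mean reached 0.5 RPKM. A gene was called at a Benjamini-Hochberg adjusted p below 0.01 in NRF and obesity and below 0.05 in the other 3 experiments. The study used these thresholds, with 0.01 in the obesity experiment for the meal in lean mice. For the other comparisons of that experiment 0.01 was carried over, although the study's supplement scored genes that differed in obese animals at 0.05. All differences given are on that log2 scale, which understates changes of low genes. Of the 89 members 75, 76, 86, 85, and 80 were tested in NRF, injected, L-GRKO, L-IRSdKO, and obesity, and 73 in all 5. In bulk liver, fewer cells of a type and less RNA per cell cannot be told apart.

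Few members were called with feeding at the onset of the dark phase. In NRF 0 of 75 were called between ZT10 and ZT14-unfed, 0 between ZT14-unfed and ZT14-fed and 0 between ZT10 and ZT14-fed, where 1.16%, 0.99%, and 1.71% of all tested genes were called. At an unadjusted p below 0.05, 3, 6, and 4 members were found, compared with 26.4%, 27.7%, and 28.3% of all genes. The median difference of the members was 0.00, 0.06, and 0.08, with all genes at -0.10, 0.12, and 0.01. The median standard error of a member was 0.13, with 2 mice a group. Rpl8 was 163 and 144 RPKM at ZT10, 164 and 158 RPKM at ZT14-unfed and 155 and 168 RPKM at ZT14-fed. The meal comparison in vehicle-injected mice called 0 of 76 members (3.13% of all genes), with 2 at an unadjusted p below 0.05 compared with 19.3% of all genes and a median of -0.06 (all genes 0.10).

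In the obesity experiment the meal raised Rpl7l1 in lean and in obese mice. In lean mice Rpl7l1 was 17.9, 17, and 17.9 RPKM unfed and 27.3, 30.8, and 25.9 RPKM fed. In obese mice it was 16, 15.2, and 19.1 RPKM unfed and 24, 27.5, and 24.3 RPKM fed. No fed mouse overlapped an unfed mouse of the same diet. The log2 rise was 0.65 (SE 0.10, adjusted p = 0.0015) in lean and 0.58 (SE 0.10, adjusted p = 0.0090) in obese mice, with a difference between them of -0.07 (SE 0.14, adjusted p = 0.85, 95% interval -0.38 to 0.24). In the obese mice this call was lost under 11 of 15 alternatives, with an adjusted p of up to 0.077, and in the lean mice under 0 of 15. Only 22.3% of its coding stretches occur elsewhere. In the other meal comparisons Rpl7l1 was not called, at 15.8, 16.5, 15.5, and 14.6 RPKM in unfed vehicle mice and 20.1, 17.7, 20.3, and 14.1 RPKM in fed vehicle mice (0.19, SE 0.13, adjusted p = 0.46) and at 16.2 and 13.4 RPKM in ZT14-unfed and 16.1 and 17.8 RPKM in ZT14-fed (0.19, SE 0.16, adjusted p = 0.49), where groups overlapped.

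Rpl12, a protein of the 60S stalk base, was also called with the meal in lean mice. It was 0.239, 0.427, and 0.750 RPKM unfed and 1.76, 2.03, and 0.982 RPKM fed, with no overlap (1.1, SE 0.22, adjusted p = 0.0060). The call was lost under 7 of 14 alternatives, at an adjusted p of up to 0.028. In obese mice the difference was 0.45 (adjusted p = 0.24), in NRF 0.58 (adjusted p = 0.075) and in injected mice 0.97 (adjusted p = 0.051), where fed vehicle mice had 0.672, 1.24, 1.14, and 0.345 RPKM and unfed mice 0.128, 0.438, 0, and 0.155 RPKM, with 1 fed mouse below the highest unfed mouse. All of its coding stretches (100%) occur elsewhere in the genome and its level was 189 RPKM in L-GRKO, so its level in these mice is uncertain. The transcript is that of the gene at chr2:32817079-32820016 (mm9, plus strand).

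These were the 2 of 80 members called with the meal in lean mice, both higher, compared with 10.2% of all genes called and 7% called higher. In obese mice it was 1 of 80, with 1.22% of all genes called and 0.962% called higher. The median difference of the members was 0.13 in lean and 0.11 in obese mice (all genes 0.08 and 0.02), and 0 of 80 differed in meal effect between the diets (0.131% of all genes). Rps19bp1 was not called, at 10.1, 8.93, and 9.30 RPKM in lean unfed and 14.7, 13.9, and 12.5 RPKM in lean fed mice (0.51, adjusted p = 0.0125).

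**Figure D3:**
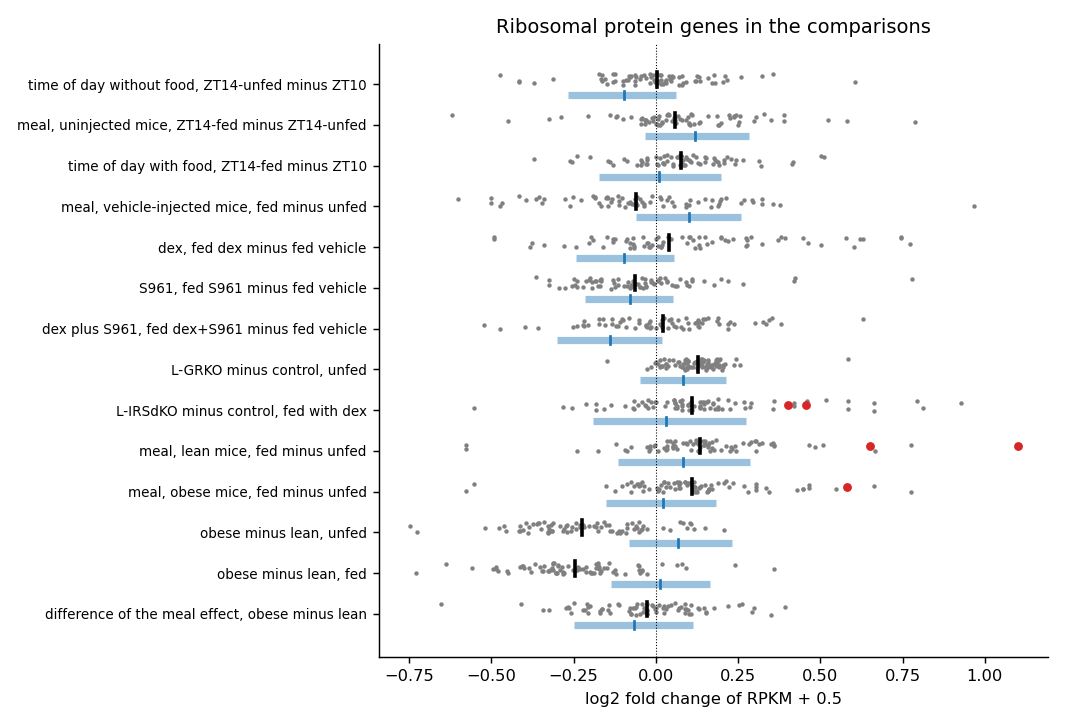
Log2 fold changes of the tested members in each comparison (x axis, log2 of RPKM + 0.5), with 1 grey point per gene, red for called members, a black bar at their median, and in blue the median and interquartile range of all genes. Most members lie near 0 in the feeding and injection comparisons, and those of obese minus lean lie mostly below 0, with medians of -0.23 unfed and -0.25 fed.

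Other genes of ribosome production were called with the meal in lean mice. Of 77 tested mitochondrial ribosomal proteins, which build the separate ribosome of that organelle, 14 were higher and 1 lower (median 0.26), compared with 7% of all genes called higher, among them Mrps2 (0.77), Mrps6 (0.60) and Mrpl19 (0.59). Of 15 alternatives, 0 lost Mrps2 or Mrpl19, 9 lost Mrps6, and 4 to 12 lost each of the others. Of 19 chaperones, assembly factors and importins for ribosomal proteins 4 were higher and 0 lower (median 0.31), namely Grwd1 (0.93), a chaperone of Rpl3, Lsg1 (0.67), a GTPase that acts late on the 60S subunit, Brix1 (0.66) and Sdad1 (0.56), lost under 3, 4, 9, and 10 of 15 alternatives. Of 22 translation factors and other TOP messenger RNAs 1 was higher and 1 lower, the latter being the initiation factor Eif4b, which fell by 0.70. Of 20 genes in the signalling from mTORC1 to TOP messenger RNAs, 1 was higher (Mlst8, 0.59, a subunit of the complex) and 4 were lower: Ddit4 (-3.07) and Sesn2 (-2.01), both inhibitors of the pathway, Sesn1 (-0.80) and Tsc1 (-0.56). The calls of Mlst8 and Tsc1 were lost under 10 of 15 alternatives each, that of Sesn1 under 7 and those of Ddit4 and Sesn2 under 0. In obese mice Mrps2 was the only gene of these 4 lists called (0.52), lost under 6 of 15 alternatives. In vehicle-injected mice Lsg1 was higher (0.67) and Eif4b (-0.46), Ddit4 (-1.87) and Sesn2 (-1.28) were lower. Of 19 alternatives, 9 lost Lsg1, 7 lost Eif4b and 0 lost Ddit4, and 0 of 18 lost Sesn2. Beside the lean meal change the endothelial marker Stab2 was lower (-0.62), and beside the meal in injected mice 3 of 6 macrophage markers were higher, with a summed level of 77.7 to 112 RPKM in fed vehicle and 52.4 to 68.1 RPKM in unfed mice. Their part in the results was not tested.

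Dex and insulin receptor blockade did not move the members past the test. Relative to fed vehicle, 0 of 76 members were called with dex (3.19% of all genes), 0 with S961 (1.9%) and 0 with dex + S961 (10.6%), and the comparisons share the fed vehicle mice. At an unadjusted p below 0.05 there were 5, 0, and 0 members, compared with 18.5%, 14.3%, and 25.8% of all genes. The medians were 0.04, -0.06, and 0.02, with all genes at -0.10, -0.08, and -0.14. The median standard error of 0.23 for a member in these groups was larger than that of all genes at 0.16. Among the 4 lists of other ribosome and mTORC1 genes, Ddit4 (2.70) and Mrps31 (0.50) rose with dex, and 0 were called with S961. With dex + S961 Ddit4 (2.74) and Sesn1 (1.67) rose, and Mlst8 (-0.47) and Mrps22 (-0.43) fell, these last lost under 3 of 18 and 7 of 19 alternatives. Irs1 also fell with dex + S961 (-0.86). The summed macrophage markers were 46.3 to 81.3 RPKM with dex, 50.7 to 76.4 RPKM with S961 and 58.1 to 69.999 RPKM with both, against 77.7 to 112 RPKM in fed vehicle mice, with 1, 3, and 4 of 6 called lower, and 2 of 5 endothelial markers were lower with dex (Kdr, -0.82, and Clec4g, -0.47). Their part in the results was not tested.

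In L-GRKO mice 0 of 86 members were called (6.68% of all genes), and 0 had an unadjusted p below 0.05, compared with 20.1% of all genes. The direction was shared, with 81 of 86 members above 0 and a median of 0.13 (all genes 0.08), and the median standard error was 0.11. Rpl8 was 213, 203, 263, and 219 RPKM in controls and 251, 268, 272, and 215 RPKM in L-GRKO mice (0.16, SE 0.11, adjusted p = 0.47), with overlap between the groups. Red cell markers were higher in L-GRKO mice, with summed levels of 454 to 893 RPKM against 307 to 401 RPKM and Hba-a1, Hbb-bs, Hbb-b1 and Alas2 called. Of the hepatocyte markers 1 of 6 was lower (Cps1, -0.90, adjusted p = 0.0017), with sums of 36753 to 47060 RPKM against 32336 to 48266 RPKM, and of the stellate markers 1 of 6 was higher (Lrat, 0.47, adjusted p = 0.037), with sums of 51.4 to 76.4 RPKM against 35.9 to 54.9 RPKM. Their part in the shared direction was not tested. Of the mTORC1 list Ddit4 was lower (-2.30) and the inhibitor Deptor higher (0.44), the latter lost under 7 of 17 alternatives. The members shared most of their variation between mice in this experiment, with a median correlation between 2 members of 0.82, so 81 of 86 is not 81 independent observations.

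In mice labelled L-IRSdKO, in which Irs1 was lower and Irs2 was not called, 2 of 85 members were called, both higher, compared with 17.4% of all genes called and 9.06% called higher. The count was 9 with quantile normalization and 0 with the replicate block or with no variance trend. It was 5 without knockout replicate 1 and 0 without control replicate 3 or 4 or knockout replicate 2, 3 or 4. Without control replicate 2 it was 1, and this was Rpl15 (0.86) rather than either of the 2. Rpl22, a 60S protein that most translation does without, was 37.2, 32.0, 35.4, and 34.4 RPKM in controls and 37.9, 52.0, 49.8, and 45.6 RPKM in L-IRSdKO mice, with no overlap (0.40, SE 0.11, adjusted p = 0.032). Its paralog Rpl22l1 was 19.8, 15.5, 15.5, and 15.8 RPKM in controls and 19.1, 21.6, 24.9, and 26.9 RPKM in L-IRSdKO mice (0.46, SE 0.13, adjusted p = 0.040). Here 1 knockout lay below the highest control. The call of Rpl22 was lost under 8 of 17 alternatives and that of Rpl22l1 under 10 of 17, with adjusted p of up to 0.093 and 0.11. Rps19bp1 was 32.5, 31.3, 35.2, and 32.5 RPKM in controls and 31.1, 26.4, 24.3, and 26.4 RPKM in knockouts and was not called (-0.28, adjusted p = 0.057). It was called lower with median-ratio scaling (-0.31), in place of Rpl22l1, and without knockout replicate 1 (-0.35). The median difference of the members was 0.11 (all genes 0.03).

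Neither gene of the Rpl22 pair was called in another comparison of time, meal, injection, genotype or diet. Both were called lower in the second of the 2 library number series of the injected mice, described below. Rpl22l1 differed by -1.13 and Rpl22 by -0.28 (limma, adjusted p = 1.1e-04 and 6.5e-04). Rpl22 lies at chr4:151699851-151708180 and Rpl22l1 at chr3:28704358-28706274 (mm9, both on the plus strand), and 30.8% and 81.9% of their coding stretches occur elsewhere. Among the other translation genes in L-IRSdKO 5 of 22 TOP messenger RNAs were higher and 0 lower (median 0.20), namely Eif4b (0.53), Nap1l1 (0.53), Npm1 (0.46), the poly(A) binding protein Pabpc1 (0.37) and the elongation factor Eef2 (0.23). The calls of Npm1 and Eef2 were lost under 6 and 2 of 17 alternatives. Of the chaperones and importins 1 of 19 was higher, which was Nap1l1 again. Mitochondrial ribosomal proteins had 5 higher and 3 lower of 77, lost under 0 to 12 of 17 alternatives. Of the mTORC1 list 4 of 20 were higher, with Sesn1 at 1.94, Ddit4 at 1.66, Sesn2 at 1.38 and Castor1 at 1.04, all known as inhibitors, and Mlst8 and Rps6kb2 were lower (-0.44 and -0.43). Of 17 alternatives, 0 lost Ddit4, 4 lost Sesn2, 7 lost Sesn1, 9 lost Mlst8 and 10 lost Rps6kb2. The call of Castor1 was lost under 2 of 16. Endothelial markers moved with the knockout, at a summed level of 108 to 143 RPKM against 88.9 to 116 RPKM, with 3 of 5 called higher, namely Lyve1 (1.47), Pecam1 (0.65) and Stab2 (0.48), and cholangiocyte markers were at 7.87 to 13.9 RPKM against 19.7 to 46.2 RPKM, with 2 of 4 called lower, namely Krt7 (-1.14) and Spp1 (-1.65). Macrophage markers were at 269 to 313 RPKM against 160 to 282 RPKM, with 1 of 6 called higher (Clec4f, 0.46), and red cell markers at 98.2 to 121 RPKM against 120 to 208 RPKM, with 1 of 4 called lower (Alas2, -2.30). Stellate markers were at 110 to 132 RPKM against 93.9 to 116 RPKM, with 1 of 5 called higher (Dcn, 0.28, adjusted p = 0.042), and 1 of 6 hepatocyte markers was lower (Ttr, -0.45). Their part in the change of Rpl22 and Rpl22l1 was not tested.

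In obese mice most members were at lower levels than in lean mice, although 0 of 80 were called at an adjusted p below 0.01 either unfed (0.77% of all genes) or fed (0%). With limma 0 of 11434 genes were called in the fed comparison and 2284 had an unadjusted p below 0.05. The median member was -0.23 unfed and -0.25 fed, while the median of all genes was 0.07 and 0.01. Below 0 were 70 of 80 members unfed and 74 of 80 fed. An unadjusted p below 0.05 in the lower direction was found for 26 members unfed, compared with 6.52% of all genes, and for 30 members fed, compared with 9.48% of all genes, and for 0 members in the higher direction in either. All 39 members with a mean of at least 20 RPKM were below 0 in both comparisons, with medians of -0.32 and -0.30.

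The summed level of the members put numbers on each mouse. Obese unfed mice were at 3449, 2582, and 3071 RPKM and lean unfed mice at 4018, 3726, and 3448 RPKM, so that the groups met at their edge. Obese fed mice were at 2962, 3491, and 3241 RPKM and lean fed mice at 4188, 3918, and 3830 RPKM, with all lean above all obese mice. Singly, 17 of 80 members had all obese below all lean mice unfed and 45 of 80 fed, compared with 6.73% and 14.9% of all genes.

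Members with few copied stretches showed the same. Rpl8, which binds the 60S core, was 235, 172, and 209 RPKM in obese unfed, 260, 263, and 238 RPKM in lean unfed, 205, 248, and 233 RPKM in obese fed and 295, 273, and 275 RPKM in lean fed mice. All obese mice were thus below all lean mice of the same meal status (-0.31, SE 0.12, adjusted p = 0.14 unfed; -0.30, SE 0.12, adjusted p = 0.19 fed). Rps3 was 92.4, 67.4, and 81.8 RPKM in obese unfed and 118, 106, and 94.4 RPKM in lean unfed mice, without overlap (-0.40, SE 0.13, adjusted p = 0.089). Fed, it was 79.5, 89.98, and 82.7 RPKM in obese and 117, 101, and 96.8 RPKM in lean mice, again without overlap (-0.31, SE 0.13, adjusted p = 0.20). The 5 tested members with under 10% of all their stretches elsewhere had medians of -0.31 unfed and -0.30 fed.

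The lowest adjusted p values unfed belonged to Rps25, Rpl35, Rplp2, and Rps15, at 0.033, 0.034, 0.039, and 0.049, of which Rpl35 is named for its value alone. Rps25, a 40S protein needed by some viral internal ribosome entry sites, was 36.4, 28.4, and 29.9 RPKM in obese and 47.8, 46.7, and 38.1 RPKM in lean unfed mice (-0.48, SE 0.11). Rplp2, an acidic protein of the 60S stalk, was 69.2, 58.5, and 71.6 RPKM in obese and 89.2, 90.1, and 85.8 RPKM in lean unfed mice (-0.41, SE 0.10). For both genes every obese mouse was below every lean mouse, and the threshold of the study was missed. The largest difference among the paralogs was in Rpl22l1, at 24.5, 10.4, and 15.8 RPKM in obese unfed, 36.1, 19.6, and 26.9 RPKM in lean unfed, 15.3, 15.9, and 14.1 RPKM in obese fed and 28.3, 24.5, and 23.6 RPKM in lean fed mice (-0.73, adjusted p = 0.14 unfed; -0.73, adjusted p = 0.17 fed), with overlap unfed and none fed. Its partner Rpl22 differed by -0.11 and -0.17.

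**Figure D4:**
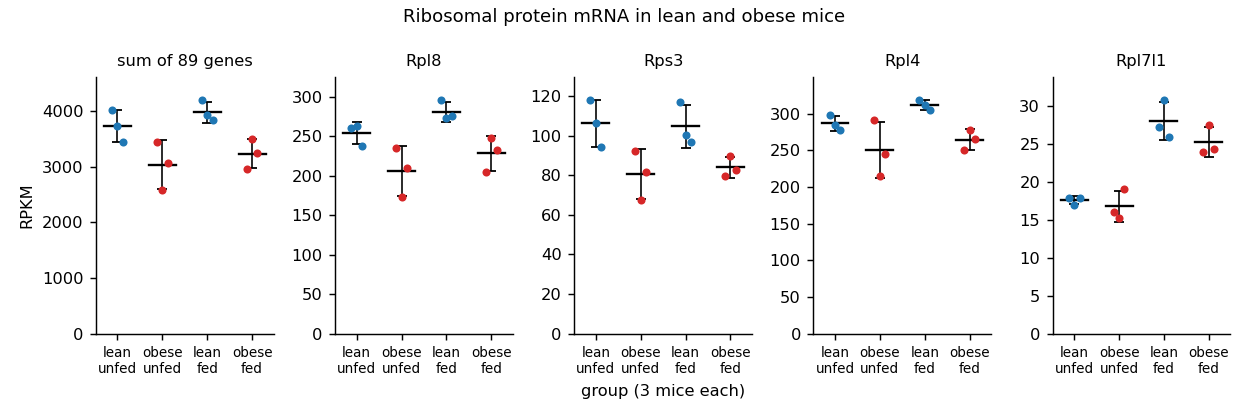
Levels by mouse in the obesity experiment (3 mice a group, x axis) for the summed members, Rpl8, Rps3, Rpl4 and Rpl7l1, in RPKM (y axis from 0), with the group mean and SD in black. In fed mice all 3 obese livers had a lower summed level (2962 to 3491 RPKM) than all 3 lean livers (3830 to 4188 RPKM).

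The obese unfed mouse with the lowest members, replicate 2, had a median deviation of -0.42 from the experiment mean, and without it the unfed median was -0.12. Without obese unfed replicate 1 the unfed median was -0.31 and Rpl35, Rps15 and Rps25 were called lower. The fed median stayed between -0.29 and -0.21 when any single mouse of these groups was left out, and obese fed replicate 1 had 2.28 times the depth of the first obese unfed library. Other short genes, with a transcript under 1000 bases, had medians of -0.03 unfed and -0.12 fed, mitochondrial ribosomal proteins 0.00 and -0.11, chaperones -0.03 and -0.14, and TOP translation factors -0.10 and -0.09. Of the mitochondrial, chaperone, TOP and mTORC1 lists Ddit4 was the only gene called, lower in obese unfed mice (-4.37, adjusted p = 4.7e-04). Hepatocyte markers were at 51600 to 56105 RPKM in obese and 57005 to 65420 RPKM in lean unfed mice. They were at 49404 to 52402 RPKM and 58168 to 61589 RPKM in obese and lean fed mice. Endothelial markers were at 30.9 to 39.3 RPKM in obese unfed and 54.3 to 65.6 RPKM in lean unfed mice, with Clec4g called lower (-0.78, adjusted p = 0.0094), but at 38.4 to 40.8 RPKM and 39.3 to 46.3 RPKM in obese and lean fed mice. The part of these in the lower levels was not tested. The correlation of 2 members over the mice had a median of 0.48, and of 0.69 among those over 20 RPKM, so the members are not independent of each other.

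The spread between mice within a group was not equal among experiments. The median SD of a member on the log2 scale was 0.136 in NRF, 0.150 in L-GRKO, 0.209 in L-IRSdKO and 0.182 in the obesity experiment, with other genes at 0.122, 0.187, 0.214, and 0.158. In the injected mice it was 0.347 with other genes at 0.232. The library numbers in the sample descriptions of the injected mice fall into 2 series, with replicates 1 to 3 of every group in the first and replicate 4 in the second. What a series stands for is not given in the sources used here.

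A comparison of the series, made after the data had been seen, called 48 of 76 members, 15 higher and 33 lower in the second series, compared with 41.5% of all genes called (limma with the 5 groups as a factor, adjusted p below 0.05). The median difference was -0.19 over the members and -0.03 over all genes. In each of the 5 groups replicate 4 was below the other 3 mice for 20 of the 76 members and above them for 3. Of all 11251 tested genes, 1176 were below and 1092 above in this way. Rps3 was at 72.3 to 92.5 RPKM in the 15 mice of the first series and 56.4 to 65.0 RPKM in the 5 of the second (-0.44, SE 0.06, adjusted p = 1.3e-05). Rps27l was at 87.0 to 118 RPKM and 47.4 to 59.5 RPKM (-0.91, SE 0.06). For neither gene did the series overlap. Rpl39, a very small 60S protein, had means of 13.2 and 4.11 RPKM (-1.61, SE 0.15).

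Other members went the other way. Rps16, chosen for this value, was at 4.74 to 15.7 RPKM in the first and 21.1 to 39.2 RPKM in the second series (1.41, SE 0.16), and Rplp1 had means of 116 and 187 RPKM (0.71, SE 0.18, adjusted p = 0.0050). Rps29 had means of 1.23 and 2.99 RPKM (1.04, SE 0.22). Rpl4 and Rpl8 were nearly level, with means of 242 and 237 RPKM and of 155 and 151 RPKM (-0.03 in both, adjusted p = 0.65 and 0.78). Since each group held 1 mouse of the second series and 3 of the first, the series was balanced over treatments. Within the first series alone the meal called 1 member higher (Rpl12, 1.17, adjusted p = 0.017), dex 0, S961 1 (Rps29, 1.20, adjusted p = 0.035) and dex + S961 1 (Rps29, 1.03, adjusted p = 0.027), where Rps29 was 0.439, 0.758, and 0.414 RPKM in fed vehicle and 2.16, 2.49, and 1.15 RPKM in fed S961 mice. With replicate 4 included Rps29 was not called (0.78, adjusted p = 0.46 for S961), and fed vehicle replicate 4 was at 4.51 RPKM.

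**Figure D5:**
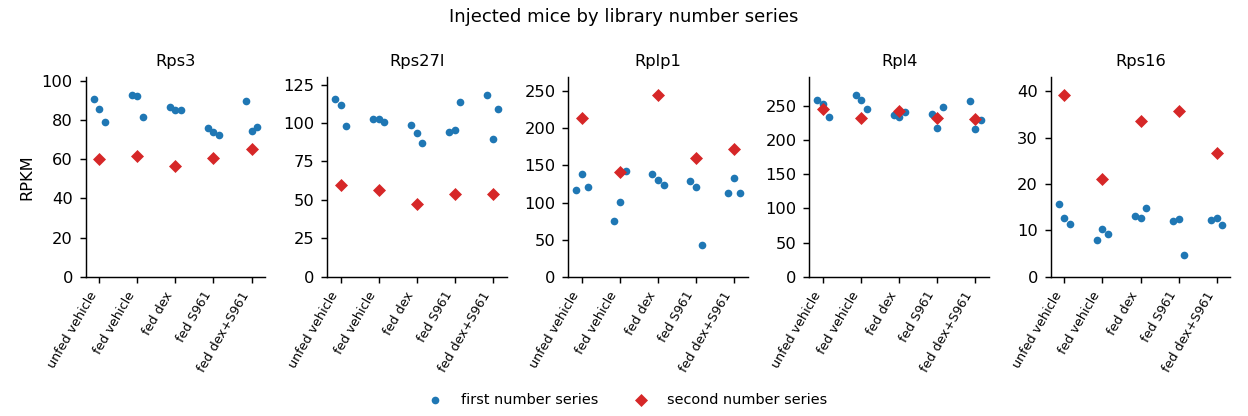
Levels of Rps3, Rps27l, Rplp1, Rpl4 and Rps16 (Rps16 chosen for its value) in the 20 injected mice by group (x axis), in RPKM (y axis from 0), with blue points for the first library number series and red diamonds for the second. For Rps3 all 5 mice of the second series (56.4 to 65.0 RPKM) lie below all 15 of the first (72.3 to 92.5 RPKM), whereas Rpl4 does not separate.

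Most starts of these genes lay near open chromatin. Within 1 kb of the transcription start 81 of 84 members (96.4%) had a DNase hypersensitive site in the liver list, compared with 86.0% of 9927 expressed genes and 100% of 76 mitochondrial ribosomal proteins. The 3 without were Rpl10l, Rpl39l, and Rpl3l, the members at or near 0. A glucocorticoid receptor peak lay within 1 kb of 4 starts (4.76%, compared with 5.78% of expressed genes), which were Rpl27, Rpl36, Rpl37a and Rps27a. A FOXO1 peak lay within 1 kb of 11 starts (13.1%, compared with 12.3%), among them Rps3, Rps19 and Rps27a. The lists give positions of peaks and no height by condition.

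The pyrimidine run of TOP messenger RNAs was searched at the annotated starts. Windows of 30 bases, from 20 before the RefSeq start to 10 bases after it, are printed for 5 of the members named above that hold such a run, 5′ to 3′ in GRCm38.p6, with the run, at least 7 C or T beginning with C, in capitals. Rps6 is from chr4:86857358-86857387 (minus strand), Rpl28 from chr7:4792945-4792974 (plus), Rps27 from chr3:90213639-90213668 (minus), Rplp2 from chr7:141447631-141447660 (plus) and Rpl22l1 from chr3:28805488-28805517 (plus), where the run goes on past the window.
Rps6: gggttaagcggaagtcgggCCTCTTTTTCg
Rpl28: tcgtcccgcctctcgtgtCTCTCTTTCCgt
Rps27: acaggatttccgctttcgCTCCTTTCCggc
Rplp2: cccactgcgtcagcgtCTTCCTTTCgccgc
Rpl22l1: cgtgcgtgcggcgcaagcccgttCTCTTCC
Such a run, on the strand of the gene and beginning within 10 bases of the annotated start, was found in 28 of 69 members with a RefSeq entry (40.6%), 7 of 15 other TOP messenger RNAs (46.7%), 7 of 69 mitochondrial ribosomal proteins (10.1%) and 3331 of all 27025 entries (12.3%). A run in these letters is a description, and the annotated start can lie away from the start used in liver.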

How the data were processed

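RNA values were deposited as RPKM per RefSeq transcript, normalized by the authors to mapped reads and transcript length. The authors used STAR with the mm9 build for alignment and DESeq2 for their own tests. The deposited peak lists (HOMER) hold positions. Strand and the handling of multiple matches are not given in the sources used here. The deposited tables hold no read totals, and relative depth was read from the smallest steps in the values. A sequencing summary in the study's supplement gives counts by library, which were not used here. In all, 0 value columns were left out.

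Of 35707 identifiers 35407 had a symbol and 300 did not. For each experiment a linear model on log2(RPKM + 0.5) was fitted in limma 3.58.1 (R 4.3.3), all groups sharing 1 variance with a mean trend, after a filter at a mean of 0.5 RPKM, with Benjamini-Hochberg adjustment over all tested genes. Python 3.11.15 (pandas 2.3.3, numpy 2.4.6, scipy 1.17.1) served the rest, and the fit was tested on simulated data. Each mouse is 1 replicate. An exact permutation test of 3 against 3 mice cannot go below 0.1, so none was used. Copied stretches of 50 bases were counted on both strands of mm9 with GENCODE transcripts. Promoter entries are RefSeq's in GRCm38.p6.

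The members and lists were chosen with earlier results of these data known. Named genes are a fixed set of members, paralogs and copies, called members, the 5 highest and 5 lowest members, up to 4 called genes a list and direction, and the targeted genes. Members outside these were named after their values were seen: Rpl35, Rps16, Rpl7a, Rpl34, Rpl30, Rpl15 and those with a peak at the start. Some genes are not reported here. The deviations of same-numbered mice correlated at -0.20 to 0.22 outside the injected mice. In the injected mice, where number 4 is the second library series, they correlated at -0.12 to 0.61 (median 0.14, with other numbers -0.05), and 27 of 40 pairs exceeded 0.1. Not every pair did, so the main model has no block, and a block and a series term are alternatives. Alternatives were other pseudocounts, filters, scalings and groups, no variance trend, a replicate block, a term for the library series and each library left out.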

Additional observations from a re-analysis of the deposited data

Results flagged for a closer look

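Of 135 values in groups of 4 mice, 9 had a mouse far from the other 3 by Dixon's gap test, where about 5% are met by chance. In fed dex replicate 4, of the second library number series, the median deviation of the members was -0.138 (the other 3 mice 0.115 to 0.128), Rps3 was 56.4 RPKM (85.2 to 86.7) and Rplp1 was 244 RPKM (124 to 138). In fed vehicle replicate 4, of the same series, Rps27l was 56.2 RPKM (100 to 103). In the L-GRKO experiment Rpl4 was 257 RPKM in Cre replicate 4 (291 to 295), and Rpl34 was 194 RPKM in eGFP replicate 3 (151 to 157) and 176 RPKM in Cre replicate 2 (169 to 170). Among L-IRSdKO controls Rplp0 was 76.1 RPKM in replicate 4 (63.7 to 65.6) and Rpl22l1 was 19.8 RPKM in replicate 1 (15.5 to 15.8), the mouse that overlaps the knockouts.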

How the results depend on the processing

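Counts of called members moved as follows. In vehicle-injected mice the meal gave 1 in place of 0 (Rpl12) with a pseudocount of 0.1, no variance trend, the replicate block, a series term or the first series alone. Dex gave 1 with the replicate block or a series term, S961 and dex + S961 1 each (Rps29) with the first series alone, and dex + S961 1 (Rpl32l) with no filter. With each library left out these 4 counts ran from 0 to 1. L-IRSdKO gave 1 with no filter, 9 with quantile normalization, 0 with no variance trend and 0 with the replicate block in place of 2, and 0 to 5 with a library left out. The lean meal gave 1 in place of 2 with no filter, a filter of 2 RPKM or the replicate block, and 1 to 2 with a library left out. The obese meal gave 0 in place of 1 with no filter, median-ratio scaling, quantile normalization, no variance trend, the replicate block or the compared groups alone, and 0 to 1 with a library left out. Obese minus lean gave 0 to 3 unfed with a library left out, and 1 in place of 0 fed with the compared groups alone (Rpl22l1). The causes were not tested. Same-numbered injected mice deviated together in part (27 of 40 pairs over 0.1), with number 4 being the second series, and in the other experiments the replicate numbers were not shown to pair the mice. Without fed vehicle replicate 3 dex called Rpl7a, and without fed vehicle replicate 4 S961 called Rps29. Over the single genes of the naming rule, 778 values kept their side of the threshold, 363 lost the call and 0 reversed, and all peak counts stayed within 1.5 times. Of the members' medians 3 moved and 153 did not, all 3 with median-ratio scaling, to 0.12 (ZT10 to ZT14-unfed), -0.07 (meal, NRF) and 0.17 (dex + S961). Levels near 0.5 RPKM rest on few reads.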

Other observations

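Rpl34, chosen after its values were seen, had the largest spread among the 34 members with a mean of at least 20 RPKM in L-IRSdKO. It was 2.82, 32.2, 31.3, and 4.61 RPKM in controls and 3.37, 39.0, 33.6, and 31.6 RPKM in knockouts, so that 3 mice were under 5 RPKM and 5 above 31 RPKM. Rpl30, chosen likewise, was 98.2, 84.8, 111, and 45.4 RPKM in eGFP and 99.6, 109, 108, and 45.9 RPKM in Cre mice, so that replicate 4 was lowest in both groups of the L-GRKO experiment.

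Rps27 and its retrogene Rps27rt differed by little in each L-GRKO mouse, at 195, 187, 231, and 184 RPKM against 197, 189, 234, and 185 RPKM in eGFP mice.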
